A study of Mus musculus with 4 samples.

Results

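The C/EBP family was examined in single LSK cells, the Lin-Sca1+cKit+ fraction of mouse bone marrow that holds hematopoietic stem cells and multipotent progenitors. The members were chosen by symbol, as Cebpa, Cebpb, Cebpd, Cebpe, Cebpg and Cebpz, and 5 of these 6 symbols were found among the 27998 genes of the count files, each on 1 row. Cebpd matched no row and was not analysed here. The rule used symbols and no measured value, and no member was used to sort or group the cells.

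C/EBP proteins (CCAAT/enhancer-binding proteins) are basic leucine zipper factors that bind DNA as dimers with each other or with related factors. In the bone marrow, Cebpa is needed for the step from early progenitors to granulocyte and monocyte progenitors, Cebpb for the granulocyte output that follows infection and cytokine stimulation, and Cebpe for late granulocyte maturation and the proteins of the secondary granules. Cebpg lacks a strong activation domain and pairs with other family members and with ATF4, whereas Cebpz is a CCAAT-binding protein without a leucine zipper that is related to a yeast ribosome assembly factor.

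The libraries came from adult Nup358 fl/fl mice (control, named wild-type in the labels) and Nup358 fl/fl CreERT2 mice (Nup358 knockout), in which Cre is expressed from the R26 locus, is activated by tamoxifen and acts in all tissues, not in blood cells alone. Mice of both genotypes in the study were treated with tamoxifen. The floxed Nup358 alleles are shared by both genotypes, and the control mice carried no Cre, so tamoxifen-activated Cre itself and the loss of Nup358 cannot be told apart. There were 2 libraries per genotype, each from LSK cells of 3 pooled bone marrows, and p-values therefore measure the spread between 2 pools and not between animals. RNA was counted as unique molecular identifiers (UMIs) from the 3′ end of transcripts, which gives no scale per transcript length, so levels are compared between cells and libraries for 1 gene and not between genes.

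On the GRCm38 (mm10) build with GENCODE M21 annotation, Cebpa lies at chr7:35119293-35121928 on the plus strand and Cebpg at chr7:35046422-35056573 on the minus strand, with 62719 bases between the pair. Cebpb is a gene of 1 exon at chr2:167688915-167690418 on the plus strand, and Cebpe has 2 exons at chr14:54710360-54712174 on the minus strand. Cebpz, with up to 16 exons, lies at chr17:78919006-78937066 on the minus strand and overlaps the gene Cebpzos on the opposite strand by 1301 bases. Whether the counting kept the strands apart is not given in the sources used here, so reads in the overlap may belong to either gene. Cebpd is annotated at chr16:15887286-15891031 on the plus strand.

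Promoter sequence is shown for Cebpa, Cebpb and Cebpg, because only these 3 of 6 members matched the RefSeq promoter table of GRCm38.p6. Each runs 5′ to 3′ on the gene's strand from 250 bases before to 30 bases after the start, at chr7:35119043-35119322 (plus strand, Cebpa), chr2:167688665-167688944 (plus strand, Cebpb) and chr7:35056537-35056816 (minus strand, Cebpg). Capitals mark 4 motifs on either strand: TATAAA, the letters of a TATA box; CCAAT, those of a CCAAT box; TGACG, the core of a cAMP-response element; and GGGCGG, a GC box.
Cebpa: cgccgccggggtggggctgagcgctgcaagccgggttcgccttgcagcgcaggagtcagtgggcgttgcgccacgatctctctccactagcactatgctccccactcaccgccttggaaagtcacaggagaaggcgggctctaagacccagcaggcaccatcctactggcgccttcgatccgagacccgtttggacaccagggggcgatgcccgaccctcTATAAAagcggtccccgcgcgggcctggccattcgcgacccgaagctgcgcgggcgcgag
Cebpb: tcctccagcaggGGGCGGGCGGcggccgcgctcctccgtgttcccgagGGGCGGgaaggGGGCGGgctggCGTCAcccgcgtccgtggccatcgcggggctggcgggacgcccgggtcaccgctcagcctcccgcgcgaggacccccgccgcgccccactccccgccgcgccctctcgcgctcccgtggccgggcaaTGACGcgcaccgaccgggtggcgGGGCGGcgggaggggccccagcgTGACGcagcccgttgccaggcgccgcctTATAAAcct
Cebpg: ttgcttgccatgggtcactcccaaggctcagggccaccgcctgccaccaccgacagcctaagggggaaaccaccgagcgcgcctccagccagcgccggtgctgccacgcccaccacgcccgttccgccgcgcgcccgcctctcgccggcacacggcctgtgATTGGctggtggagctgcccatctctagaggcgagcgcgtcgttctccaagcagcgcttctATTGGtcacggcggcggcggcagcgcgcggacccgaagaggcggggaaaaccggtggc

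The Cebpa window held TATAAA at -30 and none of the other 3 motifs. The Cebpb window held 5 GGGCGG copies (at -238, -234, -202, -191 and -30, the first 2 of which overlap), 3 TGACG copies (at -53, at -7 and, on the opposite strand, at -180) and TATAAA at 22 bases past the start. The Cebpg window held CCAAT on the opposite strand, at -89 and -28. Of 32851 windows of the same length, 13.1% held the TATA box, 36.1% the CCAAT box, 19.9% the cAMP-response core and 34.7% the GC box, so the matches are a description and are common elsewhere.

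Of 25242 deposited barcodes, 10936 (43.3%) carried the sequence of a barcode with at least 3-fold more UMIs in another library, and these shared barcodes made up 14.8% and 81.8% of the control and 65.3% and 18.8% of the knockout libraries. They were left out, which with the filters on genes and mitochondrial UMIs kept 14041 cells, between 1200 (control replicate 2) and 7830 (control replicate 1) per library. The 12513 cells with at least 3000 UMIs were thinned to 3000 UMIs and gated on marker lists that hold no family member. A gate needed at least 3 UMIs from at least 2 genes of 1 list and at least 2-fold the next list, so a gate is a range of marker RNA and not a cell type. The neutrophil gate took 4611 cells, 6.51% of them at the cut. The stem gate took 851 cells (45.8% at the cut), the early lymphoid gate 608 (27.1%), the megakaryocyte gate 365 (31.0%), the erythroid gate 230 (14.3%), the B gate 219 (3.65%), the monocyte and dendritic gate 196 (44.4%), the plasmacytoid gate 99 (62.6%) and the basophil and mast gate 31 (9.68%), while 4705 cells were ungated. In the neutrophil gate the median was 14 UMIs for the neutrophil list, 1 for the monocyte and dendritic list and 0 for each other list. The transcript of Nup358, listed as Ranbp2, stood at 127 and 101 CPM (UMIs scaled to a library total of 1000000) in the control and 124 and 126 CPM in the knockout libraries, and since exon 2 was deleted, 3′ counts do not check the deletion. Control replicate 2 held 2153 CPM of 8 mature neutrophil genes and 1051 CPM of 6 mature erythroid genes. The other libraries held 129 to 318 and 3.02 to 76.0 CPM. Genotype differences of the members that rested on control replicate 2 are given with and without it, as are median log2 differences of several gene lists.

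Across gates, 3 members varied strongly and 2 hardly at all. Among groups with at least 20 cells in 2 or more libraries, mean Cebpa was highest in the neutrophil gate and lowest in the B and erythroid gates. Its span was 10.6-fold. Mean Cebpb was highest in the stem gate and lowest in the erythroid gate, a 6.82-fold span. Cebpe was close to absent outside the neutrophil gate. Mean Cebpg and Cebpz spanned 1.30-fold and 1.37-fold over the same 9 groups of cells. These were 8 gates with at least 20 cells in 2 or more libraries and the ungated cells. The basophil and mast gate, with 4 and 2 control and 7 and 18 knockout cells, was too small to enter. In knockouts its Cebpa was 55.4 and 115 CPM, from 13 and 37 UMIs, above their neutrophil gate at 44.8 and 41.2 CPM. Its Cebpb there was 93.7 and 152 CPM, above their stem gate at 77.7 and 93.2 CPM. Its control cells held 0 Cebpa UMIs. These differences were not tested.

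Of 40 tests of a member in a gate against ungated cells, 11 passed an adjusted p of 0.05. The share over all 85352 tests of a gene in a gate was 16.9% at that adjusted p. At an unadjusted p of 0.05 12 member tests passed, for which no share over all genes is given. The 11 were spread over 5 gates. In the neutrophil gate 2 of 5 members passed, beside 37.4% of all genes, and in the erythroid gate 2 of 5, beside 33.7%, so these counts are near the background. In the B gate 3 of 5 passed beside 25.9% of genes, and in the megakaryocyte and stem gates 2 of 5 each beside 12.1%.

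**Figure D1:**
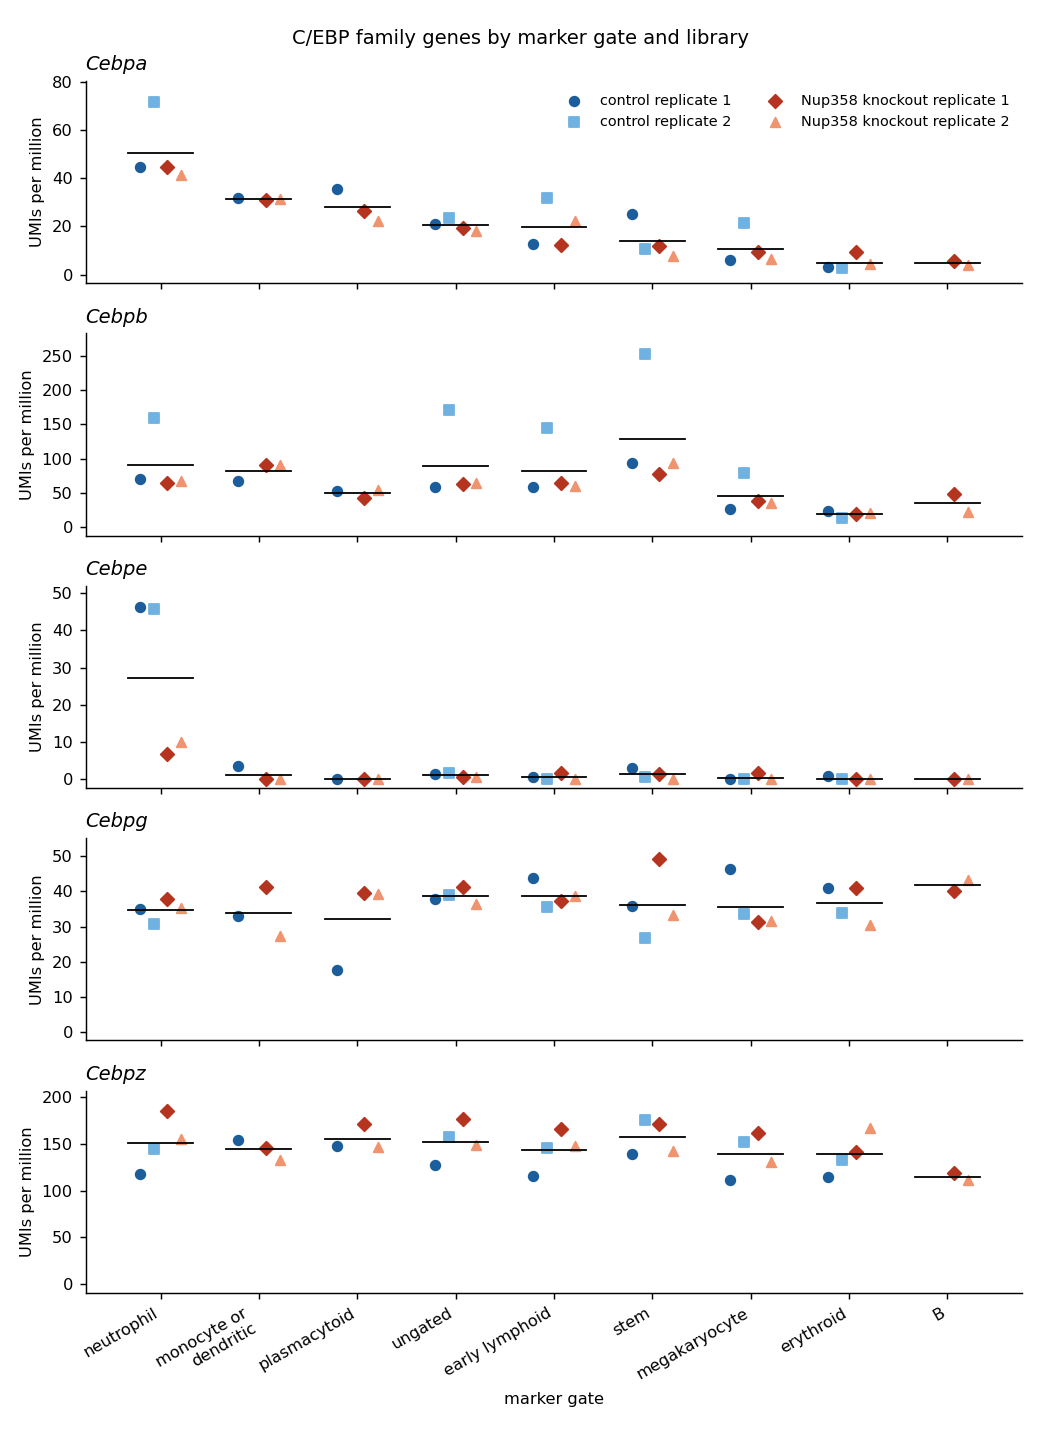
Level of each family member in UMIs scaled to 1000000 per sum (linear axes, 1 panel per gene) in each marker gate, with 1 point per library that had at least 20 cells in the gate and a bar for the mean over libraries. The basophil and mast gate is not shown. Among the groups shown, Cebpa and Cebpe had their highest mean in the neutrophil gate and Cebpb in the stem gate. Cebpg means lay between 32.2 and 41.8 CPM and Cebpz means between 115 and 157 CPM.

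Cebpa in the neutrophil gate was 44.8 and 71.8 CPM in the control and 44.8 and 41.2 CPM in the knockout libraries. Ungated cells of the same libraries held 20.8 and 23.6 CPM in controls and 19.5 and 17.9 CPM in knockouts. All 4 neutrophil-gate values lay above all 4 ungated values, and relative to ungated cells Cebpa was higher by 1.38 ± 0.12 on the log2 scale (SE, edgeR quasi-likelihood test with the library as a block, adjusted p = 1.18e-10). In the erythroid gate it was 3.29 and 2.62 CPM in the control and 9.46 and 4.36 CPM in the knockout libraries, a log2 difference from ungated cells of -1.95 ± 0.39 (edgeR, adjusted p = 0.000218). The megakaryocyte gate was lower as well, with a log2 difference of -1.28 ± 0.32 (edgeR, adjusted p = 0.00581), with 5.91 and 21.3 CPM in controls and 9.18 and 6.51 CPM in knockouts, and the control replicate 2 value lay inside the ungated range. Without knockout replicate 2 the megakaryocyte difference had an adjusted p of 0.0909 (range over all alternatives 4.82e-07 to 0.0909).

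The B gate held 6 and 4 control cells, so only the knockout libraries entered the fit, with Cebpa at 5.74 and 3.82 CPM and a log2 difference of -1.99 ± 0.46 from ungated cells (edgeR, adjusted p = 0.00131). In the stem gate Cebpa was 25.2 and 10.7 CPM in controls and 11.7 and 7.66 CPM in knockouts, and the difference of -0.74 ± 0.21 (edgeR, adjusted p = 0.0182) was lost when any of 3 libraries was left out, with adjusted p-values of 0.0971 without control replicate 2, 0.113 without knockout replicate 1 and 0.215 without knockout replicate 2 (range over all alternatives 3.05e-05 to 0.215). The neutrophil-gate difference of Cebpa passed in every alternative run, with an adjusted p of at most 6.78e-07. In order of mean level, the neutrophil gate (50.7 ± 14.2 CPM, SD, n = 4) was followed by the monocyte and dendritic (31.3 ± 0.409, n = 3), plasmacytoid (28.1 ± 6.67, n = 3), ungated (20.5 ± 2.40, n = 4), early lymphoid (19.7 ± 9.20, n = 4), stem (13.8 ± 7.76, n = 4), megakaryocyte (10.7 ± 7.19, n = 4), erythroid (4.93 ± 3.11, n = 4) and B (4.78 ± 1.36, n = 2) groups. Neighbours in this order overlapped in 7 of 8 pairs, and the neutrophil gate alone stood clear of its neighbour. The small basophil and mast gate is not in this order. The monocyte and dendritic and plasmacytoid means lacked control replicate 2, which had 17 and 9 cells there. Its Cebpa was 21.2 and 26.3 CPM in these gates, from 5 and 3 UMIs. With the 21.2 CPM the monocyte and dendritic range would overlap ungated cells, which reached 23.6 CPM. The SD of 0.409 rests on sums of 26, 15 and 8 UMIs.

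Cebpb followed another order. In the stem gate, set by genes such as Procr, Mecom and Hlf, it was 93.7 and 253 CPM in the control and 77.7 and 93.2 CPM in the knockout libraries, a log2 difference of 0.46 ± 0.12 from ungated cells (edgeR, adjusted p = 0.0119). The erythroid gate held 23.8 and 13.1 CPM in controls and 18.9 and 20.0 CPM in knockouts, a log2 difference of -1.76 ± 0.20 from ungated cells (edgeR, adjusted p = 1.82e-08). Cebpb was lower also in the megakaryocyte gate (-0.98 ± 0.17, edgeR, adjusted p = 7.16e-05) and the B gate (-1.11 ± 0.23, edgeR, adjusted p = 0.000362). The neutrophil gate, at 69.8 and 159 CPM in controls and 64.9 and 67.5 CPM in knockouts, overlapped ungated cells (0.19 ± 0.11, edgeR, adjusted p = 0.173). The stem difference had an adjusted p of 0.0863 without control replicate 1 and of 0.0619 when cells were thinned with another random seed (range over all alternatives 0.00682 to 0.0863). By mean level the order was stem, neutrophil, ungated, monocyte and dendritic, early lymphoid, plasmacytoid, megakaryocyte, B and erythroid. Only the early lymphoid and plasmacytoid neighbours did not overlap. The monocyte and dendritic and plasmacytoid means (n = 3) lacked control replicate 2, and the B mean (n = 2) lacked both controls. Control replicate 2 had 17 and 9 cells in the first 2 of these gates, with Cebpb at 148 and 123 CPM. With the 123 CPM the plasmacytoid range would overlap the early lymphoid range, which began at 57.9 CPM. The order and the gap thus depend on which libraries entered.

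Cebpe in the neutrophil gate was 46.4 and 45.8 CPM in controls and 6.68 and 9.98 CPM in knockouts. Ungated cells held 1.48 and 1.72 CPM in controls and 0.579 and 0.606 CPM in knockouts, and the neutrophil gate was higher by 4.51 ± 0.25 on the log2 scale (edgeR, adjusted p = 1.75e-14). In every other gate the mean was at most 1.33 CPM, and no Cebpe UMI was counted in the B and plasmacytoid sums of the fit. The Cebpe difference passed in every alternative run, with an adjusted p of at most 4.05e-08.

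Cebpg, the dimer partner, ranged from a mean of 32.2 ± 12.5 CPM in the plasmacytoid gate (SD, n = 3) to 41.8 ± 2.23 CPM in the B gate (n = 2), and differed from ungated cells in 0 of 8 gates by edgeR, at an adjusted or an unadjusted p under 0.05. Cebpz, the ribosome-related member, ranged from 115 ± 4.88 CPM in the B gate (n = 2) to 157 ± 18.7 CPM in the stem gate (n = 4). Cebpz was lower in the B gate, with a log2 difference of -0.38 ± 0.13 from ungated cells (edgeR, adjusted p = 0.0225), a difference with an adjusted p of 0.135 under another random seed (range over all alternatives 0.00460 to 0.135). For both genes all 8 pairs of neighbouring gates overlapped.

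Shares of single cells with a UMI were also compared. At 3000 UMIs per cell, a Cebpa UMI was found in 13.2% of 4611 neutrophil-gate cells (exact 95% interval 12.3% to 14.2%) and in 0 of 230 erythroid-gate cells, which allows a share of up to 1.30%, and 0 of 219 B-gate cells, which allows up to 1.37%. Without thinning these shares were 38.8%, 5.22% and 4.57% at median depths of 10839, 12491.5 and 11536 UMIs. These shares pool the cells of all libraries, and 3533 of the 4611 neutrophil-gate cells came from control replicate 1. Per library the Cebpa share there was 12.9% and 22.7% in controls and 11.1% and 10.5% in knockouts. The libraries thus spread more widely than the interval, which covers counting error only. The B gate held 6 and 4 control and 45 and 164 knockout cells. The shares count cells with a UMI, not cells that express the gene. Cebpe was found in 6.98% of neutrophil-gate cells (15.7% unthinned), in 0 of 230 erythroid-gate cells (0.435% unthinned), in 0 of 219 B-gate cells and in 0.404% of ungated cells. A Cebpb UMI was found in 30.2% of stem-gate and 6.09% of erythroid-gate cells. Per library the stem-gate share was 24.6% and 47.3% in controls and 33.9% and 25.7% in knockouts.

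Cells that held UMIs of more than 1 member were counted as well. Within the neutrophil gate, 7.54% of the 610 cells with a Cebpa UMI also held a Cebpe UMI, against 6.90% of the cells without one. Cebpb was found in 19.2% and 18.6% of the same cells. These shares are a description.

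The genes whose mean log2 level over the 9 groups of cells was most like that of each member were named from 7417 genes outside the gate lists, and the 9 means share libraries and depth. Cebpa was most like Rin3 (Pearson's r = 0.968), Fes (0.960) and Cers6 (0.954). Cebpb was most like Ing3 (0.970), S100a11 (0.969) and Tnrc18 (0.967). Cebpe was most like Lcn2 (0.984), Dmkn (0.979) and Ngp (0.972), of which Lcn2 and Ngp encode secondary granule proteins. The closest gene to Cebpg was Ttpal, at only 0.907, and Cebpz, whose range was narrow, was most like Rab3gap2 (0.982).

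Cebpa and Cebpe were also followed over the range of neutrophil marker RNA. Cells of the neutrophil gate and ungated cells were placed in 5 bins by the UMIs of the neutrophil list, and Cebpa, averaged over the 4 libraries, was 15.8 ± 2.53 CPM at 0 UMIs, 20.2 ± 1.82 at 1 to 2, 38.1 ± 9.98 at 3 to 9, 59.7 ± 9.90 at 10 to 29 and 53.9 ± 18.1 at 30 or more (SD, n = 4). Cebpe in the same bins was 0.402 ± 0.407, 1.18 ± 0.453, 4.10 ± 1.94, 12.5 ± 4.18 and 125 ± 82.3 CPM. From the bin of 10 to 29 to the top bin, Cebpa went from 49.4 to 49.1 CPM in control replicate 1 and from 73.1 to 80.6 CPM in control replicate 2. The lower mean in the top bin came from the knockout libraries, at 42.3 and 43.5 CPM from 11 and 8 Cebpa UMIs. Cebpe in the top bin was above its value in the bin before in all 4 libraries. There it was 99.2 and 97.2 CPM in controls and 57.6 and 245 CPM in knockouts, so knockout replicate 2 raised the mean. Mean Cebpb lay between 83.4 ± 31.5 and 119 ± 48.3 CPM over the 5 bins, with overlapping libraries. Within each of the 4 libraries it was higher in the top bin than in the bin before. It went from 63.3 to 85.6 and from 129 to 188 CPM in controls. In knockouts it went from 78.3 to 84.5 and from 62.7 to 120 CPM, with 22 UMIs in each top bin. Control replicate 2 held 188 CPM in the lowest bin as well. The 2 knockout libraries held only 7 and 8 cells in the top bin, so its knockout values of Cebpe rest on 15 and 45 UMIs.

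**Figure D2:**
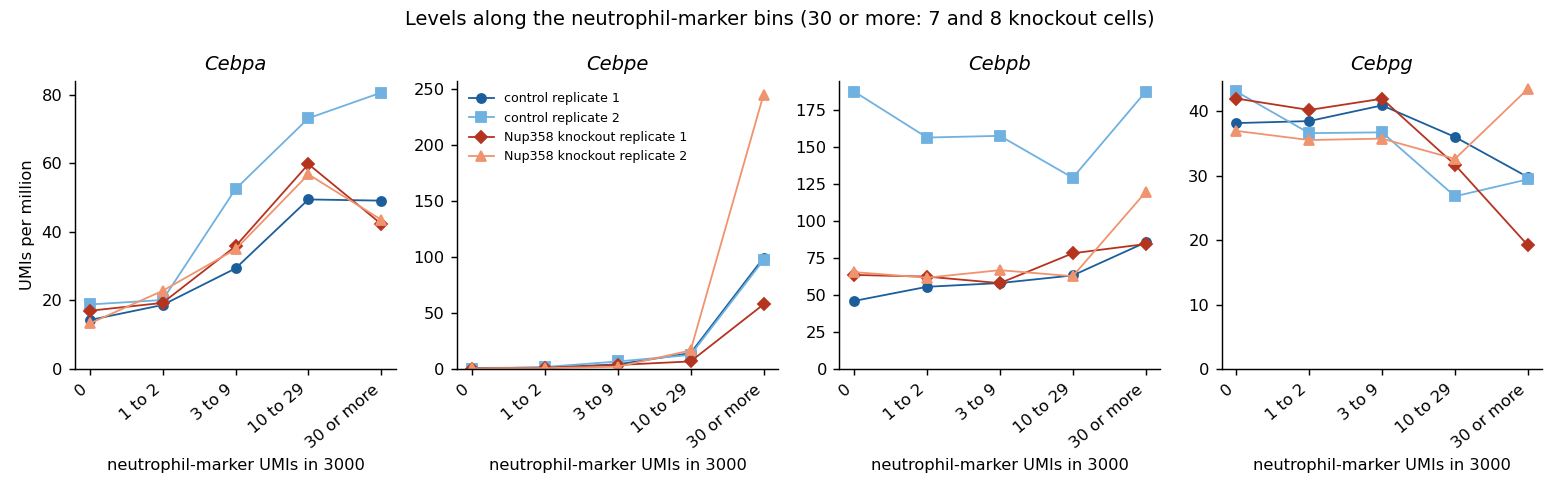
Level of Cebpa, Cebpe, Cebpb and Cebpg in UMIs scaled to 1000000 per sum (linear axes) against the number of neutrophil-list UMIs in 3000, 1 line per library, over cells of the neutrophil gate and ungated cells. Mean Cebpe climbed from 0.402 CPM in the lowest bin to 125 CPM in the highest, where the knockout points rest on 7 and 8 cells. Its values in the highest bin were 99.2 and 97.2 CPM in controls and 57.6 and 245 CPM in knockouts. Cebpe values of the genotypes overlapped in the 2 highest bins.

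The comparison of genotypes asked whether the family's RNA differed between control and Nup358 knockout LSK cells. Over all kept cells, Cebpe fell and no other member passed the test. Cebpe was 29.1 and 18.3 CPM in controls (1719 and 345 UMIs) and 2.47 and 2.12 CPM in knockouts (81 and 114 UMIs). The groups did not overlap, and the log2 difference was -3.42 ± 0.26 (edgeR, adjusted p = 0.00626). This is 1 of 5 members, beside 3.44% of 13779 genes called. In summed values, fewer cells of a type and less RNA per cell cannot be told apart.

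Cebpa was 35.7 and 41.7 CPM in the control and 26.4 and 21.2 CPM in the knockout libraries. All control values lay above all knockout values, but the log2 difference of -0.74 ± 0.17 had an adjusted p of 0.0663 (edgeR), which misses the threshold. It passed with DESeq2 (adjusted p = 0.0149) and when control replicate 1 (-0.88, edgeR, adjusted p = 0.00935) or control replicate 2 (-0.61, edgeR, adjusted p = 0.0275) was left out, and over all alternatives its adjusted p ranged from 0.00180 to 0.530.

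Cebpb was 67.7 and 165 CPM in the control and 63.5 and 63.2 CPM in the knockout libraries. Control replicate 2 stood apart, and control replicate 1 lay just above both knockout libraries. The log2 difference was -0.92 ± 0.38 (edgeR, adjusted p = 0.223), and it was -0.12 without control replicate 2 (edgeR, adjusted p = 0.566) and -1.45 without control replicate 1 (edgeR, adjusted p = 0.000319), so its size rested on 1 library. Over all alternatives its adjusted p ranged from 4.88e-05 to 0.566.

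Cebpg was 36.0 and 34.3 CPM in the control and 40.5 and 36.5 CPM in the knockout libraries (log2 difference 0.09 ± 0.14, edgeR, adjusted p = 0.756). Cebpz was 122 and 151 CPM in the control and 176 and 147 CPM in the knockout libraries, with overlapping groups (0.20 ± 0.18, edgeR, adjusted p = 0.575). The Cebpg groups did not overlap, by a narrow margin, and neither gene passed the test.

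**Figure D3:**
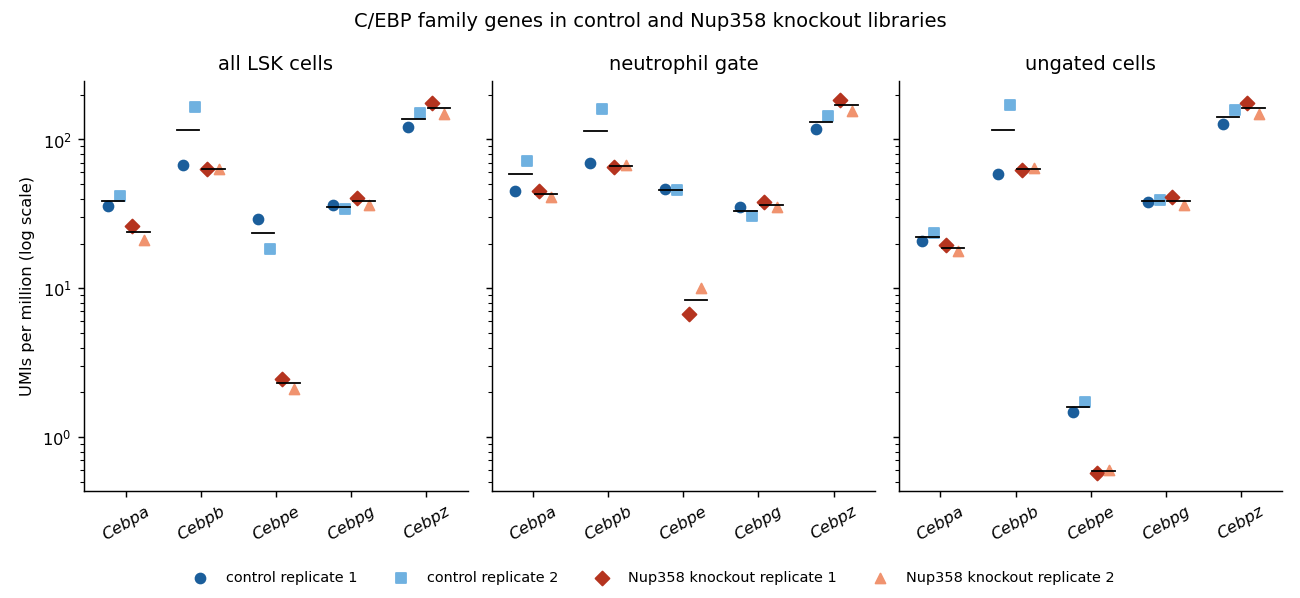
Level of each family member in UMIs scaled to 1000000 per sum (log axis) in the 4 libraries, 1 point per library with a bar for each genotype's mean, in all LSK cells, the neutrophil gate and ungated cells. Cebpe lay lower in both knockout libraries in each panel and passed the test in all LSK cells and the neutrophil gate, and control replicate 2 lay apart for Cebpb.

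The share of cells in the neutrophil gate was lower in both knockout libraries, by a narrow margin at its nearest. The gate took 52.5% and 26.0% of the gated and ungated cells in controls and 23.5% and 13.6% in knockouts, a difference with an exact permutation p of 0.333 (two-sided), the smallest that 2 against 2 libraries can give. Without the neutrophil gate, Cebpe over the remaining cells was 1.43 and 1.29 CPM in controls and 0.664 and 0.410 CPM in knockouts, with a log2 difference of -1.37 and an adjusted p of 0.122 (edgeR), beside 1.64% of 12927 genes called. Outside the neutrophil gate Cebpe therefore lay lower in knockouts but was not called, and so few UMIs cannot show that it was unchanged.

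Within the neutrophil gate, Cebpe fell from 46.4 and 45.8 CPM in the control to 6.68 and 9.98 CPM in the knockout libraries, a log2 difference of -2.51 ± 0.21 (edgeR, adjusted p = 0.00130). This is 1 of 5 members, beside 4.86% of 11422 genes called in the gate. The share of gate cells with a Cebpe UMI at 3000 UMIs was 8.18% and 6.49% in controls and 1.46% and 1.87% in knockouts, without overlap (exact permutation p = 0.333, the smallest possible). With any 1 library left out, the log2 difference lay between -2.83 and -2.25. With the shared barcodes kept, the Cebpe difference was -2.33 in the gate and -2.90 over all cells (edgeR, adjusted p = 0.00102 and 0.0104).

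The other members in the gate did not pass. Cebpa differed by -0.48 ± 0.25 (edgeR, adjusted p = 0.306), and its size rested on control replicate 2, at 71.8 CPM. The log2 difference was -0.03 without that library and -0.85 without control replicate 1. Cebpb differed by -0.85 ± 0.36 (edgeR, adjusted p = 0.218), by -0.05 without control replicate 2 and by -1.38 without control replicate 1. Cebpg differed by 0.11 ± 0.14 and did not pass. Cebpz was 118 and 145 CPM in the control and 185 and 155 CPM in the knockout libraries, without overlap, at 0.32 ± 0.18 (edgeR, adjusted p = 0.349). Its log2 difference ranged from 0.12 to 0.55 over all alternatives and was 0.55 without control replicate 2. The log2 differences of Cebpa and Cebpb in the gate ranged from -0.85 to -0.02 and from -1.38 to -0.05.

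The Cebpe difference was smaller in gate cells at matched marker UMIs. Of the knockout cells in the gate, those with 30 or more neutrophil-list UMIs numbered 7 and 8, against 1096 and 89 control cells. These control cells held 1451 of 1680 and 287 of 330 Cebpe UMIs of the gate, and these knockout cells 15 of 66 and 45 of 95. In gate cells with 3 to 9 UMIs the log2 difference was -0.66 ± 0.42 (edgeR, adjusted p = 0.399), and with 10 to 29 UMIs it was -0.24 ± 0.36 (edgeR, adjusted p = 0.776). Over gate and ungated cells together, Cebpe at 3 to 9 UMIs was 4.13 and 6.68 CPM in controls and 3.57 and 2.02 CPM in knockouts, and at 10 to 29 UMIs 14.1 and 12.5 CPM in controls and 6.75 and 16.6 CPM in knockouts. At matched marker UMIs, 0 of 5 members passed in either bin by edgeR. Of all genes, 2.20% of 11145 at 3 to 9 UMIs and 2.19% of 9614 at 10 to 29 passed. At an unadjusted p under 0.05 by edgeR the members gave 0 as well. The bins use genes of the gate list, and these differed in direction at 10 to 29 UMIs, given as a description. The neutrophil elastase gene Elane was 600 and 503 CPM in controls and 230 and 222 CPM in knockouts. Prtn3 was lower in knockouts as well (3530 and 3387 against 2208 and 2440 CPM). Ms4a3 was higher (362 and 296 against 425 and 418 CPM), and Ctsg overlapped (1309 and 1665 against 1560 and 1594 CPM). The remaining genes of that list were not examined in the bins.

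RNA of mature neutrophils was looked at beside this result, since Cebpe acts late in the lineage. The 8 mature neutrophil genes summed to 386 and 4980 CPM in the control and 160 and 661 CPM in the knockout sums of the neutrophil gate, and 0 of the 8 tested passed by edgeR or DESeq2, while 4 were lower at an unadjusted p under 0.05 by edgeR. Without control replicate 2 their median log2 difference was 0.04, against -2.52 with it. Cells with at least 10 UMIs of that list numbered 25 and 9 in the control and 3 and 3 in the knockout libraries, with Cebpe at 405 and 623 CPM in controls and 80.1 and 180 CPM in knockouts. Without these cells Cebpe in the gate was 42.8 and 34.0 CPM in controls and 6.30 and 9.28 CPM in knockouts, with a log2 difference of -2.34 (edgeR, adjusted p = 0.000857), beside 5.66% of genes called. Over all LSK cells without them it was -3.27 (edgeR, adjusted p = 0.00745), beside 3.50% of genes called.

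**Figure D4:**
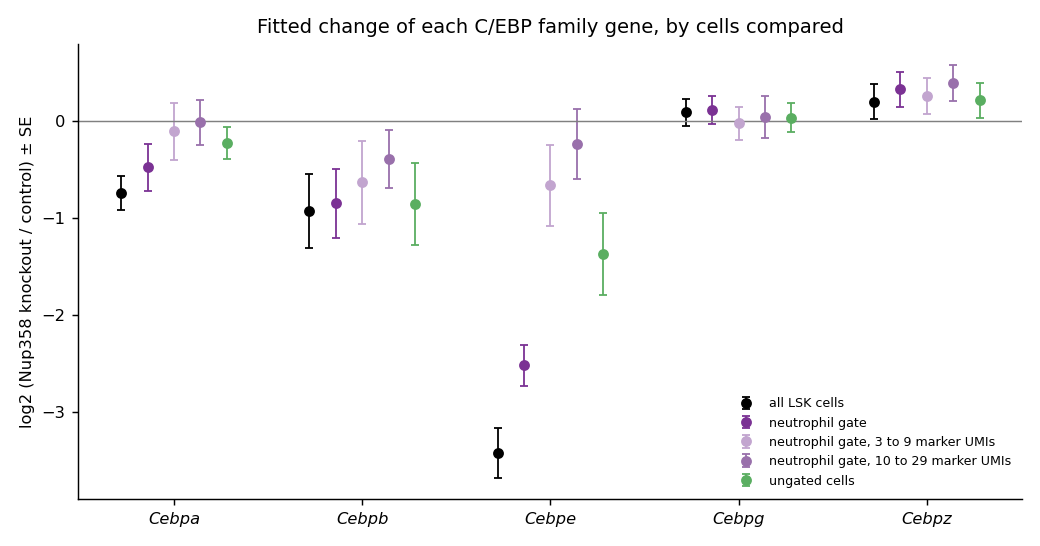
Fitted log2 difference between Nup358 knockout and control for each family member, with its standard error, in all LSK cells, the neutrophil gate, its cells with 3 to 9 and with 10 to 29 neutrophil-list UMIs, and ungated cells. Cebpe lay at -3.42 over all LSK cells and -2.51 in the neutrophil gate, and at -0.66 and -0.24 in the 2 ranges of marker UMIs.

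In ungated cells 0 of 5 members passed by edgeR, beside 3.26% of 12192 genes called by edgeR at an adjusted p under 0.05. DESeq2 gave 0 members as well. At an unadjusted p under 0.05 by edgeR there was 1 of 5. The 1 was Cebpe, at -1.37 ± 0.42 (edgeR, adjusted p = 0.102), which rested on 16 and 11 control and 9 and 18 knockout UMIs. Cebpb in ungated cells was 59.0 and 171 CPM in controls and 62.3 and 63.8 CPM in knockouts, so control replicate 1 lay below both knockout libraries.

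In the stem, early lymphoid, erythroid and megakaryocyte gates, 14 of 20 member sums passed the filter on low counts, Cebpe in none of the 4 gates and Cebpa not in the erythroid and megakaryocyte gates. By edgeR 0 of these 14 passed, beside 1.88% of all 34183 tests at an adjusted p under 0.05. At an unadjusted p under 0.05 there were 3, for which no share over all genes is given. The 3 were Cebpa in the stem gate (-0.97 ± 0.40, edgeR, adjusted p = 0.174), Cebpb in the stem gate (-1.08 ± 0.36, edgeR, adjusted p = 0.102) and Cebpb in the early lymphoid gate (-0.76 ± 0.34, edgeR, adjusted p = 0.284). Cebpb in the stem gate was 93.7 and 253 CPM in controls against 77.7 and 93.2 CPM in knockouts, with control replicate 1 just above both knockout libraries. Without control replicate 2 the difference was -0.10, and without control replicate 1 it was -1.63. In the early lymphoid gate Cebpb was 57.9 and 144 CPM in controls against 63.6 and 60.6 CPM in knockouts, so control replicate 1 lay below both. There it was 0.16 without control replicate 2 (edgeR, adjusted p = 0.812) and -1.29 without control replicate 1 (edgeR, adjusted p = 1.74e-08). Both Cebpb values therefore rested on control replicate 2. Cebpa in the stem gate was 25.2 and 10.7 CPM against 11.7 and 7.66 CPM, with overlap. It differed by -1.41 without control replicate 2 and by -0.29 without control replicate 1.

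Whether the knockout effect differed between a gate and ungated cells was tested as an interaction. By edgeR 0 of 35 member tests passed, beside 0.499% of all 74683 tests at an adjusted p under 0.05. At an unadjusted p under 0.05 there was 1, for which no share over all tests is given. It was Cebpz in the monocyte and dendritic gate (-0.54 ± 0.20, edgeR, adjusted p = 0.593). For Cebpe in the neutrophil gate the difference of effects was -1.13 ± 0.57 (edgeR, adjusted p = 0.349). A larger Cebpe effect in the neutrophil gate than in ungated cells was therefore not shown.

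The other genes of the pathway were taken from lists chosen by known function, with earlier results of these data known. The counts of list genes beside the share of all genes are therefore a description. Of 14 myeloid genes known as C/EBP targets, 10 fell in all LSK cells and 0 rose, beside 2.07% of all genes called lower and 1.37% called higher, with a median log2 difference of -2.09 against -0.01 over all genes tested. Because 6 of the 14 also set gates, the other 8 were counted alone, and 4 of these fell, with a median of -1.01. By DESeq2 6 of the 8 fell, and without control replicate 2 their median was -0.92. Mpo, the myeloperoxidase of primary granules, was 3018 and 1542 CPM in controls and 551 and 375 CPM in knockouts (-2.34 ± 0.34, edgeR, adjusted p = 0.0214). Cd14, a coreceptor for bacterial lipopolysaccharide, fell by 2.51 on the log2 scale (edgeR, adjusted p = 0.00790), and Csf2ra, a chain of the GM-CSF receptor, and Il6ra, a chain of the interleukin-6 receptor, differed by -1.20 and -1.02 on the log2 scale (edgeR, adjusted p = 0.0108 and 0.0423). Csf3r, the G-CSF receptor and a known Cebpa target, was 49.2 and 40.6 CPM in controls and 32.4 and 30.9 CPM in knockouts and did not pass (edgeR, adjusted p = 0.0909).

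In the neutrophil gate 4 of the 8 fell, again Mpo, Cd14, Csf2ra and Il6ra, beside 3.32% of all genes called lower, with a median of -1.09. Mpo was 4582 and 3675 CPM in controls and 1397 and 1283 CPM in knockouts (-1.66 ± 0.19, edgeR, adjusted p = 0.00413). At matched neutrophil-list UMIs, over gate and ungated cells, the Mpo values lay closer together. With 3 to 9 UMIs they were 1165 and 846 CPM in controls and 821 and 875 CPM in knockouts, with overlap. With 10 to 29 UMIs they were 3407 and 2624 CPM in controls and 2203 and 2243 CPM in knockouts. The Mpo values of these bins were not tested. In ungated cells 1 of 8 fell, Csf2ra, beside 2.41% of all genes called lower, at 34.9 and 31.4 CPM in controls and 18.1 and 16.6 CPM in knockouts (-0.91 ± 0.15, edgeR, adjusted p = 0.0241). By DESeq2 3 of the 8 fell in ungated cells. Their median there was -0.69 without control replicate 2, against -0.68 with it.

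Of 11 secondary granule genes known to depend on Cebpe, 10 were tested in all LSK cells and 1 fell, Lcn2, the lipocalin of secondary granules, at 55.8 and 91.1 CPM in controls and 5.56 and 12.8 CPM in knockouts (-3.02 ± 0.42, edgeR, adjusted p = 0.0193). The median of the 10 was -2.73, and 2.07% of all genes were called lower. Fcnb of this list also set the neutrophil gate, and without it 1 of 9 fell, with a median of -2.43. In the neutrophil gate 1 of 10 fell, Cybb, a subunit of the phagocyte oxidase, beside 3.32% of all genes called lower. Cybb was at 26.8 and 45.7 CPM in controls and 4.75 and 6.09 CPM in knockouts (-2.77 ± 0.33, edgeR, adjusted p = 0.00489). Without Fcnb 1 of 9 fell in the gate, with a median of -2.32. In ungated cells, where 4 passed the filter, Ngp, Lcn2 and Camp fell, beside 2.41% of all genes called lower. Ngp went from 3.60 and 5.63 CPM to 0.0643 and 0.0337 CPM. The mature neutrophil list shares Ngp and Camp with these, and in ungated cells it summed to 47.6 and 387 CPM in controls and 57.5 and 4.38 CPM in knockouts. The size of the secondary granule differences rested on control replicate 2. Without it the medians were nearer to 0, at -1.27 over all LSK cells and -0.30 in the neutrophil gate. By DESeq2 5 of 10 fell over all LSK cells. The part of mature neutrophil RNA in these values was not tested.

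Among 15 partners and regulators of the family, 2 fell in all LSK cells and 0 rose, beside 2.07% of all genes called lower. They were Irf8, which directs monocyte and dendritic fate (166 and 109 CPM in controls, 58.8 and 48.9 CPM in knockouts, -1.39 ± 0.22, edgeR, adjusted p = 0.0243), and Spi1, which encodes PU.1 (242 and 203 CPM against 134 and 133 CPM, -0.78 ± 0.15, edgeR, adjusted p = 0.0433). In the neutrophil gate Spi1 fell by 0.63 on the log2 scale (edgeR, adjusted p = 0.0448), and Gata2, a factor of stem and mast cells, rose by 0.81 ± 0.16, beside 1.54% of all genes called higher (33.7 and 25.4 CPM against 56.5 and 50.9 CPM, edgeR, adjusted p = 0.0299). Irf8 is in the list that set the monocyte and dendritic gate, so its 206 and 185 CPM in control and 49.0 and 37.7 CPM in knockout sums of the neutrophil gate are a description. In ungated cells 0 of 15 passed by edgeR or DESeq2, and 4 were lower at an unadjusted p under 0.05 by either.

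The ATF4 response, in which Cebpg is a partner, was mixed. Of 15 genes, 1 fell in all LSK cells and 0 rose by edgeR, beside 2.07% of all genes called lower and 1.37% called higher. The 1 was Atf3, a stress-induced factor (25.2 and 23.0 CPM in controls, 4.55 and 8.02 CPM in knockouts, -1.97 ± 0.27, edgeR, adjusted p = 0.0176). By DESeq2 2 rose and 1 fell. At an unadjusted p under 0.05 by edgeR 4 were higher and 3 lower, with a median of 0.24 over the list. In ungated cells 1 rose and 1 fell by edgeR, and 3 rose and 1 fell by DESeq2. Asns, the asparagine synthetase gene, rose in the neutrophil gate by 0.71 ± 0.15 (24.5 and 21.3 CPM against 40.3 and 37.0 CPM, edgeR, adjusted p = 0.0393) and in ungated cells by 0.95 ± 0.15, beside 0.845% of all genes called higher (18.3 and 18.0 CPM against 33.7 and 35.4 CPM, edgeR, adjusted p = 0.0228). Of the 15 ribosome assembly genes chosen around Cebpz, 0 passed in all LSK cells by edgeR, 2 were higher at an unadjusted p under 0.05 and 1 rose by DESeq2, while 15 of 15 had a higher mean in knockouts, with a median of 0.31 against -0.01 over all genes. Their summed level was 6635 and 5701 CPM in controls and 8030 and 8310 CPM in knockouts. In the neutrophil gate 0 passed by edgeR and 1 by DESeq2, beside 1.54% of all genes called higher by edgeR. There 4 and 5 were higher at an unadjusted p under 0.05. In ungated cells 0 passed by edgeR and 2 by DESeq2, beside 0.845% called higher by edgeR, and 10 and 9 were higher at that p. The edgeR medians of the 15 were 0.32 in the gate and 0.40 in ungated cells.

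Other RNA moved with genotype beside these results. Of 14 immediate early genes, which respond within minutes to signals and to the handling of cells, 7 fell in all LSK cells, 5 in the neutrophil gate and 12 in ungated cells (12, 9 and 12 by DESeq2), and their summed level was 3899 and 4415 CPM in controls and 1576 and 1840 CPM in knockouts. Of all genes, edgeR called 2.07%, 3.32% and 2.41% lower in these 3 groups of cells. Single genes of the list differed in pattern. Fos was 1037 and 1163 CPM in controls and 314 and 424 CPM in knockouts, high in both controls. Junb (213 and 503 CPM against 154 and 191 CPM), Zfp36 (90.3 and 192 against 58.6 and 54.2) and Socs3 (22.3 and 51.7 against 32.8 and 33.3) were highest in control replicate 2, as Cebpb was, and were picked after their values were seen. Of 6 mature erythroid genes 4 fell in all LSK cells, beside 2.07% of all genes called lower. Their sums were 76.0 and 1051 CPM in controls and 3.02 and 4.70 CPM in knockouts, and 0.525 to 1.67 CPM in the neutrophil gate. Of 7 macrophage genes 1, Hmox1, rose, beside 1.37% of all genes called higher. The list sums were 7.57 and 5.25 CPM in controls and 23.0 and 12.8 CPM in knockouts. Sums of the 5 plasma cell genes were 123 and 279 CPM in controls and 655 and 442 CPM in knockouts, with 0 of 5 called over all cells by edgeR or DESeq2 and 3 higher at an unadjusted p under 0.05. Sums of the 7 T and NK genes were 198 to 282 CPM with 0 of 7 called, and those of the 4 sort markers Kit, Ly6a, Cd34 and Ptprc were 637 to 783 CPM with 0 of 4 called, by edgeR or DESeq2 alike, and at an unadjusted p under 0.05 by edgeR 0 and 1 gene differed. Nkg7 made up 188 to 280 CPM of the T and NK sums, and the defining Cd3e, Cd3d and Cd3g were at 1.59 CPM or less. Median log2 differences over all cells changed when control replicate 2 was left out. They went from 0.38 to 2.12 for the T and NK list, from 1.46 to 1.93 for plasma genes and from 1.37 to 0.97 for macrophage genes. For sort markers they went from -0.26 to -0.21, for immediate early genes from -1.20 to -1.04 and for mature erythroid genes from -8.02 to -5.72. Every gene of these lists was counted in every library except Hba-a2, Alas2 and Slc4a1, which were at 0 in 1 or both knockout libraries. The part of each list in the C/EBP values was not tested.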

How the data were processed

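Single-cell RNA of LSK cells was measured in 4 libraries, 2 control and 2 Nup358 knockout. Per the submitters' processing notes the authors used Cell Ranger 3.1 and mm10. The authors deposited whole-number UMI counts per gene and barcode, without normalization. The family members and gene lists were chosen with earlier results of these data known.

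Here a barcode was kept with at least 200 genes and at most 10% of its UMIs from mitochondrial genes. Barcodes whose sequence had at least 3-fold more UMIs in another library were left out. No doublet caller was run, and cells that reached several gates without a 2-fold lead were called mixed (598 cells) and used in no gate. They are part of the sums over all cells and over cells outside the neutrophil gate. Gates were set on cells thinned to 3000 UMIs, and unthinned UMIs were then summed per library. Kept UMIs per library ranged from 18846887 to 59033602.

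Sums were tested with edgeR 4.0.16 (R 4.3.3, limma 3.58.1) by the quasi-likelihood method, with TMM scaling, a filter on low counts and Benjamini-Hochberg adjustment over all genes tested, at 0.05. Gate contrasts used sums of at least 20 cells with the library as a block. DESeq2 1.42.0 was an alternative. Errors are SE for log2 differences and SD for CPM. CPM is UMIs scaled to a sum of 1000000. Shares have exact Clopper-Pearson 95% intervals, and a count of 0 was given the limit of 3 cells, and both cover counting error only. Shares between genotypes were compared by exact permutation. Other genes were named when among the 3 smallest p-values of a list or past the threshold, at most 6 a list. The list symbol Cop1 was matched as Rfwd2. Genes most like a member were ranked by Pearson's r over the means of 9 groups of cells. The fits recovered known changes of a fixed size in simulated counts with the same spread for every gene. The simulation held no library that stood apart, as control replicate 2 did here. It therefore checks the code and not the power or error rate in these data. Bins of marker UMIs, cells without mature neutrophil RNA, cells outside the neutrophil gate and the crossed block were added after the data were seen. So were members in the smaller gates with 1 library left out, list counts by DESeq2 and list medians without control replicate 2. Python 3.11.15 with numpy 2.4.6, pandas 2.3.3, scipy 1.17.1 and matplotlib 3.10.9 was used.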

Additional observations from a re-analysis of the deposited data

Results flagged for a closer look

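With 2 libraries per genotype no group was large enough for a test of single libraries, so the 4 libraries were pooled across genotypes for each member and group of cells, and a library was marked when its gap to the nearest other was above Dixon's 95% critical value for 4 samples. Of 31 such tests 7 were above it, and chance gives about 1 in 20. The 31 tests share libraries and genes and are not independent.

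Cebpb in control replicate 2 was marked in 5 groups of cells, at 165 CPM in all LSK cells, 159 CPM in the neutrophil gate, 171 CPM in ungated cells, 253 CPM in the stem gate and 144 CPM in the early lymphoid gate. Cebpa in the neutrophil gate was marked in the same library, at 71.8 CPM. Cebpg in the megakaryocyte gate was marked in control replicate 1, at 46.4 CPM. Control replicate 2 was also the library with the most shared barcodes and the highest mature neutrophil and erythroid sums. Without the cells with at least 10 mature neutrophil UMIs, its Cebpb was 162 CPM in all LSK cells and 154 CPM in the neutrophil gate. Its Cebpa in the gate was then 72.8 CPM. The part of shared barcodes and of mature RNA in these levels was not tested.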

How the results depend on the processing

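The fall of Cebpe over all LSK cells kept its call except without the neutrophil gate, and in the gate except in both bins of marker UMIs. Over all LSK cells 474 genes and 1 member were called, against 946 and 2 with DESeq2, 1933 and 3 without the filter on low counts, 212 and 0 without the neutrophil gate, and 372 to 2890 and 1 to 3 when 1 library was left out. In the neutrophil gate 555 genes and 1 member were called, against 1468 and 2 without the filter, 245 and 0 at 3 to 9 marker UMIs, 211 and 0 at 10 to 29, and 22 to 2704 and 1 to 3 when 1 library was left out. In ungated cells 397 genes and 0 members were called, against 1802 and 1 without the filter, 828 genes when thinned to 1500 UMIs, and 243 to 3513 and 0 to 1 when 1 library was left out. Without the filter Cebpb was called in all 3 groups of cells. The 11 calls of members between gates became 6 to 10 when 1 library was left out, where the B gate could not be fitted without either knockout library. The difference of the knockout effect gave 0 calls of members in every alternative run. Replicate numbers are a shared number only, since deviations of same-numbered libraries were correlated at -0.206 over 5865 genes. With the replicate block 1257, 621 and 369 genes and 3, 1 and 0 members were called over all, neutrophil-gate and ungated cells. With the pairing crossed it was 1735, 1628 and 1794 genes and 3, 2 and 0 members. Directions turned for Cebpg in the neutrophil gate at 3 to 9 UMIs (-0.0244). When 1 library was left out, Cebpg in ungated cells ranged from -0.0434 to 0.104 (below 0 without control replicate 1 or knockout replicate 1), Cebpb in ungated cells from -1.46 to 0.16 (above 0 without control replicate 2) and the Cebpa difference of effects in the neutrophil gate from -0.453 to 0.0646 (above 0 without control replicate 2). The causes were not tested. The top bin of marker UMIs, with 7 and 8 knockout cells, is too small for a test of Cebpe.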
